A study of Rattus norvegicus with 6 samples.

Results

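Intronic REST sites outside repeats were examined in HCN cells, a line of neural stem cells from the adult rat hippocampus. A site belonged to this class when its annotation began with intron and its detailed annotation named no repeat element. By this rule there were 432 sites among 1775 in iQNP, which is 24.3% (95% Wilson interval, 22.4 to 26.4), and 231 among 778 in TAP, which is 29.7% (26.6 to 33.0). A further 30 iQNP and 7 TAP sites lay in introns but inside repeats. TAP cells proliferated in 20 ng/ml FGF2. iQNP cells received the same FGF2 (20 ng/ml) together with BMP4 at 50 ng/ml, which held them in quiescence. Each condition had 1 ChIP library with a commercial REST antibody, 1 with a mix of the homemade antibodies REST14 and REST17, and 1 input library. Values were assigned to the antibodies by the run numbers in the peak tables, read as the antibody numbers of the sample titles, and the tables do not name the antibodies, so each pair of values below is given as commercial, then homemade, on that reading. The labels do not say that the 2 libraries of a condition came from separate cultures, so the spread between them holds the antibody difference and may otherwise be technical. Library depths lay between 25.2 and 29.8 in units of 1000000 tags, and tags are given below per 10000000 tags, as the mean over both antibodies where only 1 value is given. The fold over input was at least 4.01 at all sites in all 4 libraries. Intervals cover counting error only.

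REST is a zinc finger repressor that silences neuronal genes in cells that are not neurons and in neural progenitors. It binds a long bipartite element, RE1, and recruits corepressor complexes that contain histone deacetylases and a histone demethylase. RE1 elements are found in promoters and between genes, and many of the best known ones lie within the gene they repress, often in the first intron, and some lie near microRNAs.

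Some of the intronic sites had the start of a microRNA gene as their nearest TSS. The mature sequences of these microRNAs, from RefSeq on GRCr8, are shown to identify the 5 microRNA genes that had an entry, with the seed (bases 2 to 8) in capitals.
rno-miR-346: uGUCUGCCugagugccugccucu
rno-miR-1249: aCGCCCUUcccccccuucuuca
rno-miR-3085: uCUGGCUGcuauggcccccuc
rno-miR-551b-3p: gGCGACCCauacuugguuucagu
rno-miR-551b-5p: gAAAUCAAgcuugggugagaccu
rno-miR-671: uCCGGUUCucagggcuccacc
No seed was shared between them. In iQNP, 8 intronic sites had a microRNA as the nearest gene, and 6 such sites were listed in TAP. The strongest lay in intron 1 of Xkr6, a scramblase family gene, 16696 bp upstream of Mir598, with 62.1 tags for the commercial and 32.2 for the homemade antibodies in iQNP. In TAP this site had 19.4 and 12.7 tags. The site in intron 1 of Kiaa0930, 12755 bp upstream of Mir1249, had 49.3 and 35.6 tags in iQNP and 25.3 and 17.5 in TAP. The site in intron 3 of Crtac1, 43612 bp upstream of Mir3085, had 35.8 and 21.2 tags in iQNP and 16.3 and 11.1 in TAP. At these 3 sites, both iQNP libraries were above both TAP libraries, as at 92.7% of all 756 sites called in both conditions. Grid1, a member of the glutamate receptor family, held sites in introns 2 and 3 that had Mir346 as the nearest gene, and only the one in intron 2 was also called in TAP. The sites that pointed to Mir551b and Mir671 were weak, at 6.39 and 7.05 tags and at 6.39 and 4.70 tags in iQNP, and neither was called in TAP.

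The rule leaves out sites labelled promoter-TSS, and the nearest intronic site was 134 bp from a TSS in iQNP and 166 bp in TAP. Within 1 kb lay 54 of the 432 iQNP and 37 of the 231 TAP sites. Of 347 host genes in iQNP with an identifier, 11 also had a promoter-TSS site. REST's element is written here by the letters of its 2 parts, TTCAGCACC and GGACAGCGC. Searched on both strands without mismatch, the first was in 119 of 33469 rat promoters (0.356%) and the second in 139 (0.415%), with the promoter taken as 250 bases before to 50 after the TSS. Among the 272 host promoters in the table, 2 held the first part and 3 the second. Among hosts with a promoter-TSS site, Tph2 and Lhfpl5 held a match, and 30 bases around it are printed from RefSeq on GRCr8, 5′ to 3′ on the gene's strand, with the match in capitals. The 2 parts do not overlap.
Tph2, chr7:52675620-52675649, minus strand: tcTTCAGCACCagggttctGGACAGCGCct
Lhfpl5, chr20:6633980-6634009, plus strand: cgctggccgcGGTGCTGAAacgcgttcggt
In Lhfpl5 the match is to the opposite strand. Both genes were picked for these matches after their values were seen. Tph2, the rate-limiting enzyme of neuronal serotonin synthesis, had a promoter-TSS site with 83.4 and 54.7 tags in iQNP and a weaker site in intron 7, 40057 bp downstream of its TSS, with 45.4 and 26.9. The intron 7 site of Tph2 had 12.8 and 21 tags in TAP. Lhfpl5, a component of the hair cell transduction complex, had a promoter-TSS site with 26.3 and 12.8 tags and a site in intron 2 with 30.9 and 18.1 in iQNP. Its intron 2 site was called in TAP, with 15.2 and 8.34 tags, and its promoter-TSS site was not.

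First introns held more of the sites than any other intron. In iQNP, 173 of 432 sites (40.0%; 95% Wilson interval, 35.5 to 44.7) lay in intron 1, 78 in intron 2, 43 in intron 3 and 21 in intron 4. In TAP, 102 of 231 (44.2%; 37.9 to 50.6) lay in intron 1, 38 in intron 2 and 22 in intron 3. The intervals of the first-intron shares overlap between the conditions. The host transcripts had a median of 12 introns in both conditions, and 23 iQNP and 15 TAP sites lay in the last intron of their host. CpG islands were named at 24 iQNP and 12 TAP sites. The median distance to the nearest TSS was 26648 bp in iQNP and 26048 bp in TAP, between the 98 bp of promoter-TSS sites and the 82568 bp of intergenic sites in iQNP. It was 6136 bp for first-intron and 51062 bp for later-intron sites in iQNP, and 3210 and 52894 bp in TAP. Of first-intron sites, 50 of the 173 in iQNP and 35 of the 102 in TAP were within 1 kb of a TSS, against 4 of 259 and 2 of 129 sites in later introns. From 10 to 100 kb lay 57 of the 173 and 30 of the 102. Intron number and distance from the start of the host go together along a gene, so this contrast is a description.

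**Figure D1:**
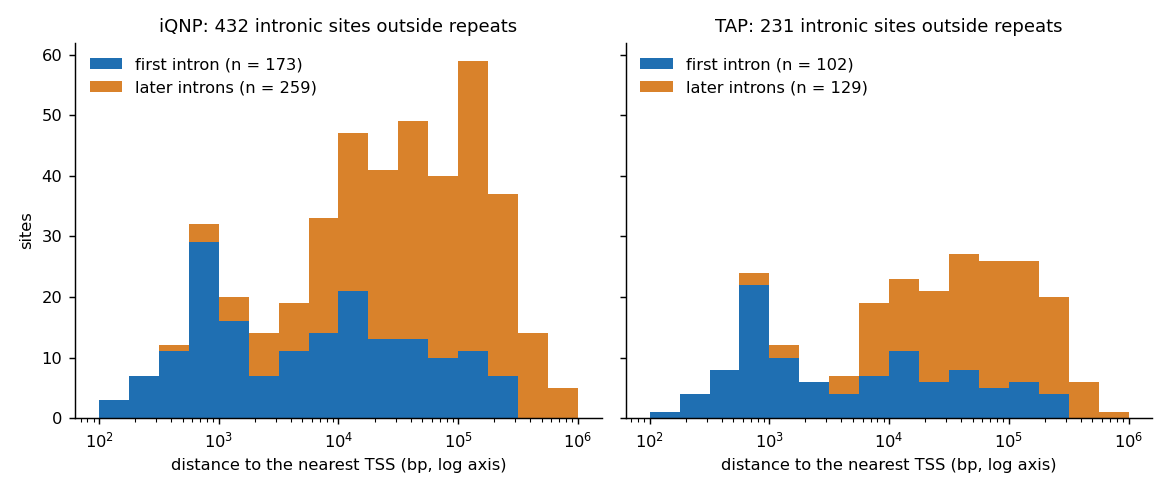
Number of intronic REST sites outside repeats (vertical axis) by distance to the nearest TSS in bp (log axis), in iQNP (left) and TAP (right), with first-intron sites in blue and later-intron sites in orange, stacked. First-intron sites spread from 134 bp upward with a peak near 1 kb, and later-intron sites are mostly beyond 10 kb.

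The nearest TSS was not always that of the host gene. It belonged to the host at 340 of 432 iQNP sites and 179 of 231 TAP sites, and the host was found by its transcript in RefSeq for 88 and 50 more. At 4 iQNP and 2 TAP sites the transcript had no match. The nearest TSS lay downstream of the site at 60 iQNP and 38 TAP sites. The farthest sites from any TSS were in introns 16 and 9 of Nrxn3, a presynaptic adhesion molecule, at 972202 and 657099 bp, and in intron 5 of Csmd1, a large gene of a complement-regulating family, at 631731 bp. None of these 3 was called in TAP. The nearest in iQNP were in the first introns of Tppp (134 bp), Diras1 (139 bp) and Fam54b (176 bp), of which only the Diras1 site, with 32.6 and 24.2 tags, was called in TAP, with 20.6 and 13.9. Tppp and Fam54b were weak, with 5.68 tags for the commercial antibody at each.

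The iQNP sites fell in 352 host genes and the TAP sites in 202. Both conditions shared 198 hosts, 154 had an intronic site in iQNP alone and 4 in TAP alone. In iQNP, 297 hosts had 1 site, 38 had 2, 11 had 3, 4 had 4 and 2 had 5. The 17 hosts with 3 or more sites held 59 sites. They were Atp2b2 and Nrxn3 with 5 sites each, Camta1, Sorcs3, Asic2 and Btbd9 with 4, and Phf21b, Cdh13, Celf4, Cpne4, Trappc9, Anks1b, Kirrel3, Cacna1a, Ctnnd2, Dscaml1 and Dlgap2 with 3. Sites of a host differed in tags in some hosts and were alike in others. Atp2b2, a plasma membrane calcium pump, had sites between 12 and 82.0 tags, and Celf4, a neuronal RNA-binding protein, had 1 site at 132.8 beside 2 at 15.9 and 24.8. The 3 sites of Anks1b lay between 27.4 and 32.1. All 3 Celf4 sites were called in TAP, 2 of 5 were in each of Atp2b2 and Nrxn3, and none of the 3 in Dlgap2, a postsynaptic density protein. The sites of 1 host spanned from 43.2 kb in Phf21b to 964.4 kb in Nrxn3 among these 17.

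Tags at the sites were close to those of all sites. The median was 18.9 in iQNP and 12.2 in TAP, against 17.9 and 12.6 over all sites. In iQNP it was 20.1 in first and 17.9 in later introns, and in TAP it was 12.2 in both. The commercial antibody gave more tags than the homemade antibodies at 91.4% of the intronic sites in iQNP and 80.1% in TAP. Over all sites these shares were 83.3% and 73.4%, and at promoter-TSS sites they were 48.1% and 79.7%. Across the intronic sites, the Pearson correlation between antibodies, on log2 tags, was 0.96 in iQNP (432 sites) and 0.92 in TAP (231 sites). The input was low, with a median of 2.9 tags in iQNP and 2.25 in TAP when scaled to the depth of the ChIP libraries, and no intronic site had more than 10 times the median input. The 5 strongest sites were the same in both conditions, and of these the site in intron 3 of Camta1, a calmodulin-binding transcription activator, was the highest, with 404.7 and 218.2 tags in iQNP and 229.8 and 157.2 in TAP. Sites in intron 1 of Npas4, intron 2 of Phf21b and intron 6 of Camta1 came next. The fifth was in intron 10 of Cdh13, a cadherin without a transmembrane part, on chromosome 19 from 49512377 to 49512437 of rn4, with 173.5 and 94.3 tags in iQNP and 84 and 65.9 in TAP. At all 5, every iQNP value was higher than the TAP value of the same antibody, as at 98.5% of all 756 shared sites. The edgeR test given below called 1 of the 8 intronic pairs with over 50 tags in TAP, against 68.4% of all shared sites. This pair lay in Celf4 and was not among these 5. With the antibody as a term in the fit, 7 of the 8 were called, against 94.8% of all shared sites.

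A TAP site with its centre within 50 bp was found for 223 of the 432 sites in iQNP, or 51.6% (95% Wilson interval, 46.9 to 56.3), and for 209 none was. Over all iQNP sites the share was 42.6% (40.3 to 44.9), over intergenic sites 43.9% (40.8 to 47.1) and over promoter-TSS sites 24.0% (19.3 to 29.6). In the other direction, 226 of 231 TAP sites (97.8%; 95.03 to 99.1) had an iQNP site. At 3 of these 226 the iQNP site had another class. In the 223 pairs where both sites were intronic outside repeats, the centres were a median of 11.5 bp apart and at most 45 bp. The share rose with tags: 0 of 53 sites with up to 8 tags had a TAP site, which allows a share of up to 6.76%, and 4 of 74 with 8 to 12, 46 of 104 with 12 to 20, 147 of 174 with 20 to 50 and 26 of 27 with over 50 had one. At 12 to 20 tags the share was 44.2% (35.1 to 53.8) for intronic sites, 34.3% (28.5 to 40.6) for intergenic and 9.86% (4.86 to 18.98) for promoter-TSS sites. At 20 to 50 tags it was 84.5% (78.4 to 89.1), 74.8% (70.2 to 78.9) and 51.8% (41.2 to 62.2). These shares are descriptions, since sites of 1 pair of libraries are not replicates, and no test between the classes was run. The lowest mean at an intronic TAP site was 5.31 tags, and the median log2 ratio of iQNP over TAP at shared sites was 1.05. Weak iQNP sites thus had little room above this floor in TAP, and how far it sets the rise with tags was not tested.

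**Figure D2:**
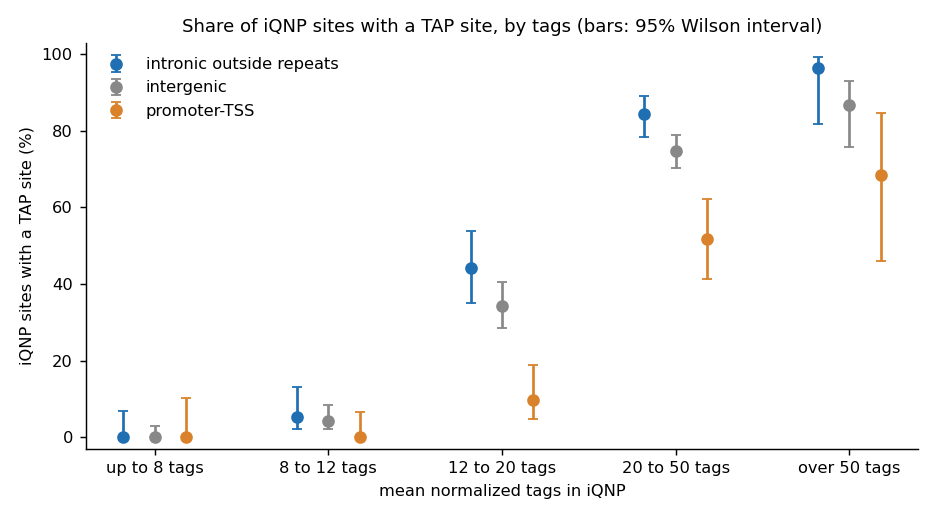
Percent of iQNP sites with a TAP site within 50 bp (vertical axis) by mean normalized tags in iQNP (horizontal axis), for intronic sites outside repeats (blue), intergenic (grey) and promoter-TSS sites (orange), with 95% Wilson intervals as bars. Intronic sites go from 0% at up to 8 tags to 96.3% above 50, and promoter-TSS sites stay lower, at 68.4% above 50.

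The share with a TAP site was 57.2% (49.8 to 64.4) in first introns and 47.9% (41.9 to 54.0) in later introns, and the intervals overlap. Within 1 kb of a TSS it was 66.7% (53.4 to 77.8), against 47.7% (37.5 to 58.1) from 1 to 10 kb, 53.1% (45.8 to 60.3) from 10 to 100 kb and 45.2% (36.4 to 54.3) farther away. Median iQNP tags in the same order were 22.3, 17.1, 19.4 and 17.9, so the group nearest to a TSS also had the most tags. Sites without a TAP site had a median of 10.4 tags, those with one 27.0. Only 28 of the 209 had over 20 tags. The strongest was in intron 3 of Atp2b2, on chromosome 4 from 149775523 to 149775585, with 99.3 and 64.8 tags. The nearest TAP site was 10286 bp away, and another intron 3 site of Atp2b2 had 35.5 and 30.6 tags in iQNP and 13.6 and 10.7 in TAP. Next came intron 1 of Armc8, a subunit of an E3 ubiquitin ligase complex, with 49.7 and 38.6 tags and a fold over input of 5.29 and 4.12. Its input, scaled to the depth of each ChIP library and not to 10000000 tags, was 26.4 and 27.9. Intron 1 of Marchf11, a membrane ubiquitin ligase, had 49.0 and 31.9 tags, intron 1 of Kif5a, a neuronal kinesin heavy chain, had 40.8 and 26.5, and intron 2 of Kalrn, a guanine nucleotide exchange factor of dendritic spines, had 40.8 and 26.2. For 44 of the 209, the host had another intronic site called in TAP. Sites called in iQNP alone have no TAP value in the tables, and their TAP tags were not analysed here.

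The 5 TAP sites without an iQNP site were weak. Among them were sites in intron 1 of Xkr6 with 7.39 and 8.74 tags, intron 2 of Spock1, a testican proteoglycan, with 7 and 8.74, intron 10 of Meis3, a homeobox factor, with 8.94 and 6.75, and intron 25 of Wdr7 with 5.44 and 9.13. The Wdr7 site overlapped an iQNP site with 13.1 and 11.8 tags whose centre was 54.5 bp away, so it counts as unpaired only by the 50 bp limit. All 5 were below the TAP median of 12.2 tags. Xkr6 held 2 stronger intron 1 sites that were called in both conditions.

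At the 223 pairs, iQNP had more tags than TAP. The median log2 ratio was 1.05, with 1.14 for the commercial antibody, 0.91 for the homemade antibodies and an SD between them of 0.17. Over all 756 shared sites the median was also 1.05. Tags were higher in iQNP with both antibodies at 221 of 223 pairs, against 98.5% of all shared sites, and both iQNP libraries were above both TAP libraries at 206, or 92.4%, against 92.7%. The 2 exceptions were Cacna1b and Reln, and the latter, the gene of the secreted guidance protein reelin, is named after its values were seen. Its site in intron 2 had 18.8 and 12.8 tags in iQNP and 7.39 and 13.5 in TAP. Total tags were tested with edgeR (quasi-likelihood), and the depths served as library sizes. At an adjusted p under 0.05, 157 of 223 pairs (70.4%) were higher in iQNP, against 68.4% of all shared sites. None had more in TAP, where 0 of all shared sites had an unadjusted p under 0.05. With the antibody as a block, the count was 211, or 94.6%, against 94.8% of all shared sites. These shares of the intronic pairs were close to those of all shared sites. All of these values rest on the depths as the scale. TMM normalization, which sets the typical shared site to no change, moved the median of all shared sites by more than 1 log2 unit, to -0.01, and called 10 intronic pairs higher in iQNP, against 5.16% of all shared sites, and 13 higher in TAP, against 6.75%. DESeq2 with its own size factors called 0 in either direction, and 1 of all 756 shared sites each way. With the depths it called 149 in iQNP, or 66.8%, against 67.3% of all shared sites. Pairs exist only where a TAP site was called, so the ratios leave out the 209 sites without one.

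**Figure D3:**
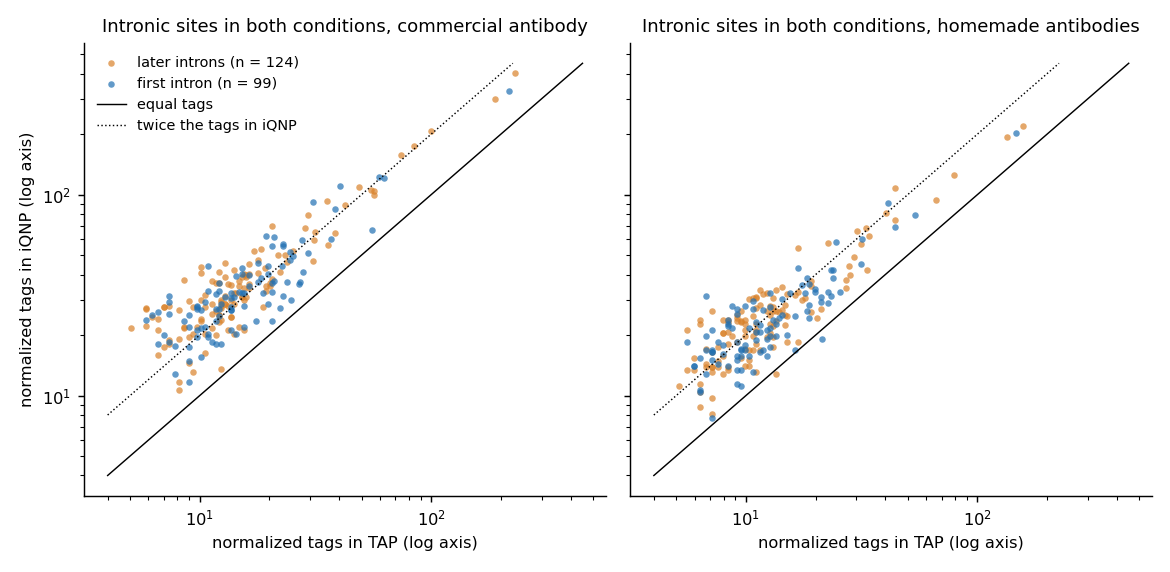
Normalized tags in iQNP (vertical log axis) against TAP (horizontal log axis) at the 223 intronic sites called in both conditions, with the commercial antibody (left) and the homemade antibodies (right), first introns in blue and later introns in orange. Nearly all points lie above the solid line of equal tags, around the dotted line of a 2-fold difference.

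First introns had a median log2 ratio of 0.98 (99 pairs, SD 0.17 between the antibodies) and later introns 1.08 (124 pairs, SD 0.15). The later-intron median was higher with each antibody, at 1.17 against 1.09 with the commercial and 0.96 against 0.84 with the homemade antibodies, and the difference was not tested. Of the pairs within 1 kb of a TSS, 34 were in first and 2 in later introns, with medians of 0.88 and 0.83. For first and later introns the medians were 0.98 and 1.06 from 1 to 10 kb, and 0.99 and 1.27 beyond 100 kb. From 10 to 100 kb first introns were higher, at 1.12 (29 pairs) against 1.06 (65 pairs). By distance, the median was 0.88 within 1 kb of a TSS (36 pairs, SD 0.25), 1.02 from 1 to 10 kb (41 pairs, SD 0.20), 1.08 from 10 to 100 kb (94 pairs, SD 0.12) and 1.11 beyond 100 kb (52 pairs, SD 0.14). The same order was seen with each antibody: 1.03, 1.10, 1.16 and 1.24 with the commercial and 0.68, 0.82, 0.99 and 1.05 with the homemade antibodies. The test called 19 of 36, 27 of 41, 70 of 94 and 41 of 52 pairs in these groups, against 68.4% of all shared sites. With the antibody as a block it called 30 of 36, 36 of 41, 93 of 94 and 52 of 52, against 94.8%. At shared promoter-TSS sites the median was 0.88 with 50.8% called, and at shared intergenic sites 1.10 with 72.8% called. Lower ratios near a TSS were thus not particular to intronic sites, and no trend was tested. On the fold over input, the order of the distance groups did not hold, with medians of 1.02, 0.69, 0.71 and 0.80. The 11 pairs at CpG islands had a median of 0.81, with 0.97 for the commercial and 0.48 for the homemade antibodies. The strongest of them was in intron 1 of Chgb, a granin of secretory granules, 342 bp from its TSS, with 120.3 and 78.9 tags in iQNP and 62.6 and 53.6 in TAP. Both iQNP values at Chgb exceeded both TAP values, as at 92.7% of all shared sites.

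The largest change among pairs past the threshold was in intron 4 of Schip1, a protein of the axon initial segment, on chromosome 2 from 158039376 to 158039434. Its site had 27.7 and 23.8 tags in iQNP and 7 and 6.35 in TAP, a log2 change of 1.96 (SE 0.41, adjusted p = 0.00014, edgeR). Next came intron 2 of Shisa6, an auxiliary AMPA receptor protein, with 27.7 and 26.2 tags in iQNP and 7 and 7.15 in TAP. Intron 1 of Ano4, an anoctamin, had 23.8 and 18.5 against 5.83 and 5.56. Intron 9 of Shank2, a postsynaptic scaffold, had 27.0 and 15.4 against 5.83 and 5.96. Intron 3 of Cdh22, a cadherin, had 37.6 and 23.2 against 8.56 and 8.34. The log2 changes at these 4 were 1.93, 1.88, 1.84 and 1.84, with adjusted p from 0.00014 to 0.00022. In all 5 the normalized tags of the conditions did not overlap. The 5 were chosen for large changes in these same tags, and 92.7% of all shared sites did not overlap in this direction. On fold over input the log2 ratios were 0.60, 0.58, 2.19, 0.58 and -0.14 in the same order, so that the direction turned at Cdh22. The TAP values lay between 5.56 and 8.56, against a lowest mean of 5.31 among the intronic TAP sites.

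The smallest changes were at Kcnh4, a voltage-gated potassium channel, with 23.4 and 16.8 tags in iQNP and 20.6 and 16.3 in TAP (log2 change 0.12, SE 0.38, adjusted p = 0.76), and at Cacna1b, the N-type calcium channel, with 31.2 and 19.1 against 22.9 and 21.4 (0.21, SE 0.39, adjusted p = 0.61). Nxph1, a ligand of neurexins, had 13.5 and 9.74 against 12.4 and 7.15. Ern2, a sensor of the unfolded protein response, had 10.6 and 8.06 against 8.17 and 7.15. Chga, another granin, had 27.3 and 15.8 against 22.2 and 12.3. At all 5, which were chosen for small changes in these same tags, the values of the conditions overlapped. The Kcnh4, Cacna1b and Chga sites lay in first introns within 1 kb of a TSS, at 718, 963 and 250 bp. On fold over input the log2 ratios were 0.02 at Kcnh4, 1.61 at Cacna1b, -0.68 at Nxph1, 0.37 at Ern2 and 0.39 at Chga.

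**Figure D4:**
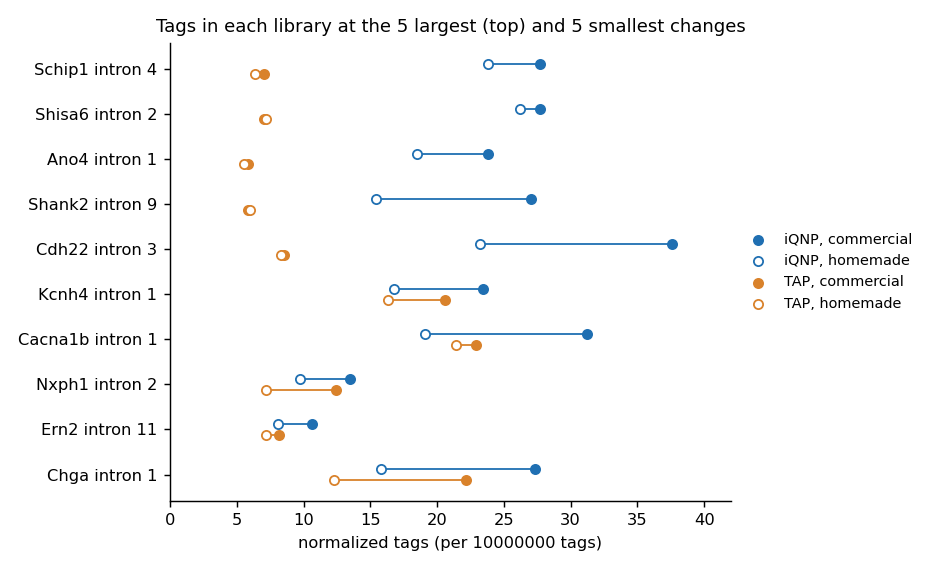
Normalized tags (horizontal axis, per 10000000 tags) in each of the 4 libraries at the 5 intronic sites with the largest changes past the threshold (top 5 rows) and the 5 with the smallest (bottom 5 rows). Filled points are the commercial and open points the homemade antibodies, iQNP in blue and TAP in orange, and lines join the libraries of a condition. At the top the TAP points lie between 5.56 and 8.56 tags, far below iQNP, and at the bottom the conditions lie close together.

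The host genes were next read by function, in 14 lists of 290 neuronal and regulatory genes drawn up with the annotation already seen, so the number of hosts in a list is not evidence of its own. They held 166 of the 432 iQNP sites (38.4%) in 122 hosts, and 100 pairs, of which 72 had more tags in iQNP by the test and 93 with the antibody as a block, against 68.4% and 94.8% of all shared sites. The counts per list that follow stand against the same 68.4%, and no list was tested against it. The median log2 ratio over the 100 was 1.04, against 1.05 over all shared sites.

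Among ion channel genes, Hcn2, Hcn3 and Hcn4, channels that carry the hyperpolarization-activated current, each had a site in the first intron that was called in both conditions. The site of Hcn4 had 51.4 and 38.3 tags in iQNP and 29.2 and 18.3 in TAP, and that of Hcn2 36.9 and 23.8 against 17.9 and 13.1. Hcn3 had 29.8 and 24.2 against 24.9 and 18.7. Tags were higher in iQNP by the test at Hcn2 and Hcn4 (adjusted p = 0.027 and 0.045). Hcn3 did not pass (0.42), and 1 of its iQNP values was below a TAP value of the other antibody. With the same antibody, Hcn3 tags were higher in iQNP both times. Of 18 calcium channel subunit genes, 7 hosted 9 sites, and 4 of their 6 pairs passed the test. The strongest was in intron 3 of Cacna1a, the P/Q-type channel, with 56.4 and 39.6 tags in iQNP and 35.8 and 28.2 in TAP, where the test did not pass (adjusted p = 0.19). Cacna2d3, an auxiliary subunit, had 45.1 and 31.9 against 16.3 and 11.9 in intron 2 and passed (adjusted p = 0.0025). Of 43 potassium channel subunit genes, 10 hosted 12 sites and 5 of 7 pairs passed. Kcnip2, an auxiliary subunit of A-type channels, had 25.9 and 16.5 tags in iQNP and 6.61 and 7.15 in TAP at intron 1 (log2 change 1.61, SE 0.40, adjusted p = 0.00075). Dpp6, another auxiliary subunit of A-type channels, had 21.6 and 18.8 against 10.1 and 11.1 in intron 1 (adjusted p = 0.029). Only 3 of 13 sodium channel genes were hosts, all in the first intron: Scn10a, Scn3b and Scn2a1. Scn10a alone was called in TAP, with 20.6 and 21 tags there and 55.7 and 30.9 in iQNP. Cacng2 (stargazin) held 2 first-intron sites and was the only host of its 8-gene family. The stronger had 61.7 and 42 tags in iQNP and 21 and 23.4 in TAP, and both passed the test.

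Among receptors and transporters, 3 of 16 GABA-A receptor subunit genes and 6 of 26 glutamate receptor genes were hosts in iQNP. All 3 GABA-A pairs and all 4 glutamate pairs passed the test, which 68.4% of all shared sites did. Grik3, a kainate receptor, had 28.0 and 17.8 against 9.72 and 9.93. Of 18 transporter genes, 8 hosted 13 sites, and 6 of 9 pairs passed. Slc12a5, the neuronal chloride extruder KCC2, held sites in introns 1 and 7. Its intron 1 site had 66.7 and 45.3 tags in iQNP and 55.6 and 31.4 in TAP. The groups overlapped, though each antibody alone was higher in iQNP. Neither site passed the test (adjusted p = 0.42 and 0.13). With the antibody as a block, all 9 transporter pairs passed, against 94.8% of all shared sites.

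Of 39 synaptic vesicle and active zone genes, 16 hosted 19 sites, 13 of these in the first intron, 3 within 1 kb of a TSS and 14 over 10 kb away, and 9 of 15 pairs passed. Snap25, a SNARE protein of the plasma membrane, had 122.7 and 69.2 tags in iQNP and 59.5 and 44.1 in TAP at intron 1, 603 bp from its TSS (log2 change 0.89, SE 0.48, adjusted p = 0.080). Nsf, the ATPase that takes SNARE complexes apart, had 88.3 and 66.1 against 42.4 and 30.2 in intron 4. Syt7, a calcium sensor of release, had 92.2 and 58.1 against 30.7 and 24.6 in intron 1 (log2 change 1.44, SE 0.46, adjusted p = 0.0056). All 8 sites in the 20 dense core granule and neuropeptide genes lay in first introns within 1 kb of a TSS and were called in both conditions, and 6 passed. Sst (somatostatin) fell most from iQNP to TAP in this list, from 44.0 and 29.5 to 10.9 and 10.7 tags (log2 change 1.77, SE 0.42, adjusted p = 0.00062). Chgb did not pass (adjusted p = 0.12).

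Adhesion and guidance genes had the most sites of any list, 38 in 21 of 28 genes, and 12 of the 38 lay in first introns. Of their 20 pairs, 16 passed, with a median log2 ratio of 1.30. L1cam had 84.4 and 60.1 tags in iQNP and 38.5 and 31.8 in TAP at intron 1, 386 bp from its TSS (adjusted p = 0.035). Unc5a, a netrin receptor, had 78.8 and 57.7 against 29.2 and 22.6 in intron 2 (adjusted p = 0.0064). Slit1, a repellent of axons, had 47.5 and 42.3 against 24.5 and 23.8 and did not pass (0.051). Cdh13, the strongest, did not pass either (0.11). Of 20 postsynaptic scaffold genes, 12 hosted 15 sites, and all 6 pairs passed. Dlgap4 had 110.0 and 91.0 tags in iQNP and 40.4 and 40.9 in TAP in intron 1, and the stronger site of Shank2, in intron 2, had 92.6 and 56.7 against 35.4 and 31.4. Of 15 scaffold sites, 9 had no TAP site, and over all iQNP sites 1019 of 1775 had none.

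RNA-binding proteins had the lowest median log2 ratio of the lists. Transcription factors came next, close to GABA-A receptor subunits at 0.91 and potassium channel subunits at 0.93. Of 16 RNA-binding protein genes, 6 hosted 8 sites, and 3 of 6 pairs passed, with a median log2 ratio of 0.80. Celf4 had the strongest, in intron 2, with 157.9 and 107.8 tags in iQNP and 73.9 and 44.1 in TAP (log2 change 1.17, SE 0.50, adjusted p = 0.030), and Celf5 had 41.1 and 32.9 against 28.0 and 22.6 (0.55, SE 0.41, adjusted p = 0.20). Of 21 transcription factor genes, 17 hosted 23 sites. Of these 23, 9 formed pairs, and 42.6% of all iQNP sites had a TAP site. The test was passed by 4 of the 9 pairs, and their median log2 ratio over all 9 was 0.90. This list holds Camta1, Npas4 and Phf21b, whose sites were the strongest of all. With the antibody as a block, 6 of 6 RNA-binding protein pairs and 8 of 9 transcription factor pairs passed, against 94.8% of all shared sites. The differences in median between lists were not tested.

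**Figure D5:**
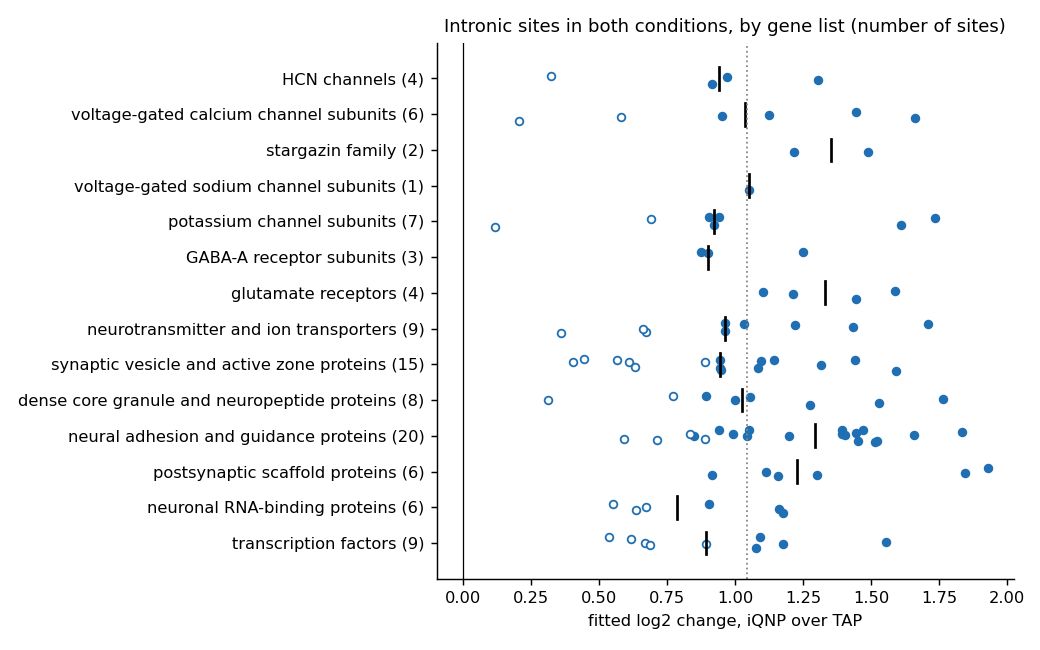
Fitted log2 change in tags, iQNP over TAP (horizontal axis), at each intronic site called in both conditions, by gene list (vertical axis, number of sites in brackets). Filled points passed the test, open points did not, black bars are list medians and the dotted line is the median of all 223 pairs. All points lie above 0, and the medians of these fitted values run from 0.79 for RNA-binding proteins to 1.35 for the stargazin family with 2 sites.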

How the data were processed

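The authors aligned REST ChIP-seq reads of HCN cells to rn4 with Bowtie2 and called peaks with HOMER against input (Poisson limit 0.0001). Peaks of both antibodies were then joined within 50 bp. The deposited tables give total tags as counts, normalized tags as signal per 10000000 tags, input tags as signal scaled to the depth of each ChIP library, a focus ratio as a fraction, not used here, a p-value, and the fold over input, which is a ratio. Annotation (class, intron, nearest TSS) came from the study's supplementary tables. These repeat 1 site per condition, which was dropped, and 1 gene name turned into a date was restored by its gene ID. Hosts were read from the transcript in the annotation through RefSeq. Depth was total over normalized tags. Sites were paired one to one within 50 bp. edgeR 4.0.16 (R 4.3.3) tested total tags at the 756 shared sites with Benjamini-Hochberg adjustment over all of them. DESeq2 1.42.0 was an alternative. 2 libraries against 2 cannot give an exact permutation p below 0.333. The fit was also run on simulated data with changes in both directions and no antibody effect. That setting differs from the shift of nearly all sites toward iQNP seen here, so the run does not bear on it. The replicate number stands for the antibody. Over shared sites, the log2 ratio of the 2 antibodies in iQNP correlated with that in TAP at 0.044. This correlation leaves out the offset by which the commercial antibody was higher at most sites in both conditions. Named sites were those with the most tags, the largest and smallest changes, hosts with 3 or more sites, the top sites of each list, microRNA neighbours, sites of 1 condition and the distance extremes. Sites and lists were chosen with earlier results of these data known. Some sites that meet this rule are not reported here. The rn4 sequence was not used here.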

Additional observations from a re-analysis of the deposited data

How the results depend on the processing

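The scale decided the comparison of tags. With TMM normalization over shared sites, 10 intronic pairs had more tags in iQNP and 13 more in TAP, and the median log2 ratio was -0.014 over all intronic pairs, -0.080 in first introns and 0.019 in later introns. DESeq2 with its own size factors called 0 in either direction. On fold over input the medians were 0.78, 0.77 and 0.79. With 1 antibody at a time the median log2 ratio lay between 0.91 and 1.14, between 0.84 and 1.09 in first introns, and between 0.96 and 1.17 in later introns; 1 library per condition allows no test. The replicate block, with the antibody as a term, gave 211 pairs with more tags in iQNP and 0 in TAP. The number marks a shared antibody and not a shared culture, and the deviations correlated at 0.047 over intronic pairs.

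The share of iQNP sites with a TAP site was 43.5% with centres within 25 bp and 46.0% with a fold over input of at least 8. The median distance to the TSS was 16748 bp in iQNP and 13707 bp in TAP where the nearest TSS was the host's. Of 45 alternatives for 12 results, 32 stayed within the spread between antibodies, the Wilson interval or 1.5 times the count.

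The same alternatives were applied to the 10 pairs with the largest and smallest changes after the data were seen. Among the smallest, TMM gave log2 changes of -0.93 at Kcnh4, -0.85 at Cacna1b, -0.81 at Nxph1, -0.77 at Ern2 and -0.74 at Chga, and DESeq2 with its own size factors gave -0.93, -0.87, -0.80, -0.77 and -0.74. With the homemade antibodies alone Cacna1b was at -0.16, and with the commercial antibody alone at 0.45. The 5 largest changes were 0.77 to 0.92 and lost their call under DESeq2 with its own size factors, and were 0.78 to 0.91 and kept it under TMM (edgeR, adjusted p from 0.013 to 0.042). The lowest total at any site was 12 tags in each library, and whether weaker TAP signal lies at the 209 other sites was not tested.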
